A study of Mus musculus with 6 samples.

Results

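Transcripts of the nuclear-encoded mitochondrial respiratory chain were examined in the hippocampus of TonEBP+/- mice and of wild-type mice. Members were taken by gene symbol: names that begin with Ndufa, Ndufb, Ndufc, Ndufs, Ndufv, Uqc, Cox4 to Cox8 or Atp5, and Sdha, Sdhb, Sdhc and Sdhd, leaving out symbols that carry the pseudogene ending -ps. This gave 95 of 24346 gene symbols. They comprised 74 structural subunits (36 of complex I, 4 of complex II, 8 of complex III, 11 of complex IV and 15 of complex V), 12 assembly factors and 9 alternative forms of complex IV subunits. Of the 95, 93 reached 1 FPKM in at least 3 libraries and were tested; the others, Cox7b2 and Cox8c, lay at or near 0.

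RNA-seq of hippocampus gave 3 libraries from TonEBP+/- mice (HET 1 to HET 3), which carry 1 disrupted allele of Nfat5, the gene for the tonicity-responsive transcription factor TonEBP, and 3 from wild-type littermates (TonEBP+/+, WT 1 to WT 3). All were 12 months old, on a C57BL/6 background after 5 to 6 generations of backcrossing, and the labels name no treatment. They do not state where in the gene the disruption lies or whether each library came from 1 animal. The p-values therefore measure the spread between these libraries, which may be technical. Nfat5 was at 8.25, 9.31 and 8.42 FPKM in HET 1 to HET 3 and at 10.5, 8.39 and 9.72 FPKM in WT 1 to WT 3. These ranges overlapped (log2 difference -0.12, SE 0.0963, limma adjusted p = 1.00), so the level of the whole gene did not check the genotype labels; HET and WT here mean the libraries labelled so.

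The respiratory chain sits in the inner mitochondrial membrane. Complexes I (NADH dehydrogenase) and II (succinate dehydrogenase) pass electrons to ubiquinone, complex III passes them to cytochrome c, and complex IV (cytochrome c oxidase) passes them to oxygen. The proton gradient built by complexes I, III and IV drives complex V, the ATP synthase. Most subunits are encoded in the nucleus and meet a small set encoded by mitochondrial DNA, and neurons rely on this pathway for most of the ATP that ion pumping and synaptic transmission consume.

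The promoters of these genes are known for sites of several transcription factors, among them GABPA (NRF-2), YY1 and the estrogen-related receptors. Their short motifs were searched on both strands of RefSeq windows that run from 250 bases before to 50 bases after the transcript start (GRCm38.p6). The letters were CCGGAAG for GABPA, AANATGGC for YY1 and AAGGTCA for estrogen-related receptors, each counted on its own with overlaps included; NRF1, another factor known for these promoters, is not reported here. Windows were matched for 79 of the 95 members. The windows below belong to members described later: the complex I subunits Ndufa10 and Ndufs3, and Cox8a and Cox8b, the common and the alternative form of 1 complex IV subunit. They lie at chr1:92473709-92474008, chr2:90904672-90904971, chr19:7217567-7217866 and chr7:140900397-140900696, all on the minus strand, and capitals mark the motif letters found on either strand.
Ndufa10: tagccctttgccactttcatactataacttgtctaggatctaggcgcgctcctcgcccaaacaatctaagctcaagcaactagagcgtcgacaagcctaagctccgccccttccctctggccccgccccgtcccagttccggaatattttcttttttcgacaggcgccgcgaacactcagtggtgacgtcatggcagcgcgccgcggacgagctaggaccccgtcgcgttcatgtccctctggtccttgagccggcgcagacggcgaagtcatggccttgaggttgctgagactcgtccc
Ndufs3: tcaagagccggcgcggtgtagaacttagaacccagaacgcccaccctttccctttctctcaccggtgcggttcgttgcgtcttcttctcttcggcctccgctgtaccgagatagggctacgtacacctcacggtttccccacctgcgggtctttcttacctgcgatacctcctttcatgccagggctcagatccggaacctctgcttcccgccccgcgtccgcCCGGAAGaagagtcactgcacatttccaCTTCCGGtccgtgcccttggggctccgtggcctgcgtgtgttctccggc
Cox8a: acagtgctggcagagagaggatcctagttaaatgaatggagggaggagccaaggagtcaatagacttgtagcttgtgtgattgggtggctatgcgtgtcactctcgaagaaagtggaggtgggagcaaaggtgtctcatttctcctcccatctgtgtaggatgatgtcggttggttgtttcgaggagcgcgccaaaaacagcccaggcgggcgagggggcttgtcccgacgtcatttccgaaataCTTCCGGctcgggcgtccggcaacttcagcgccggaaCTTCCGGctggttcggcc
Cox8b: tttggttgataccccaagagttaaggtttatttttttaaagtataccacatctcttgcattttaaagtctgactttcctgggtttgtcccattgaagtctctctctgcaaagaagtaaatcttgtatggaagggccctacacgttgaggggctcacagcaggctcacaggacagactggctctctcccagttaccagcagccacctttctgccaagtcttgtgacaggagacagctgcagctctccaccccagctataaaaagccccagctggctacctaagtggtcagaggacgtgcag

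At least 1 of the 3 motifs lay in the windows of 40 of the 79 matched members (50.6%), against 20.5% of all 27025 genes with a window. YY1 letters were found for 20 members (25.3%) and for 6.96% of all genes, GABPA letters for 17 members (21.5%) and 9.93% of all genes, and the estrogen-related receptor letters for 9 members (11.4%) and 5.38% of all genes. By class, a motif was present for 35 of 63 structural subunits, 5 of 11 assembly factors and 0 of 5 alternative forms. Ndufs3 held GABPA letters at -27 and 2 from the start and Cox8a at -5 and 33, while the windows of Ndufa10 and Cox8b held none of the letters searched. The members with a motif had a median level of 152 FPKM (n = 40), and those without had 96.9 FPKM (n = 39). The classes differ in level as well as in their share with a motif. These medians pool the classes, so they cannot tell motif and class apart. A match of letters is a description and not a bound site. In 71 of the 85 member windows, the 4 printed ones included, bases just after the start lay within a GENCODE transcript of the gene. This checks the strand and does not show that a transcript begins at that start.

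Structural subunits were abundant in every library. FPKM counts fragments per kilobase at a common depth. The median over subunits was 122 FPKM for complex I (range 21.7 to 517), 102 FPKM for complex II (73.8 to 157), 288 FPKM for complex III (53.6 to 520), 445 FPKM for complex IV (120 to 941) and 259 FPKM for complex V (91.7 to 594). Levels per length still went with length: the 26 structural subunits under 600 nt had a median of 282 FPKM, and the 25 over 1000 nt had 105 FPKM. The median transcript length was 810 nt in complex I, 1612 nt in II, 519.5 nt in III, 606 nt in IV and 742 nt in V, and its part in the differences between complexes was not tested. Assembly factors, which help to build the complexes without staying in them, had a median of 13.1 FPKM (6.04 to 226), and the 7 tested alternative forms had 7.89 FPKM (1.20 to 179).

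**Figure D1:**
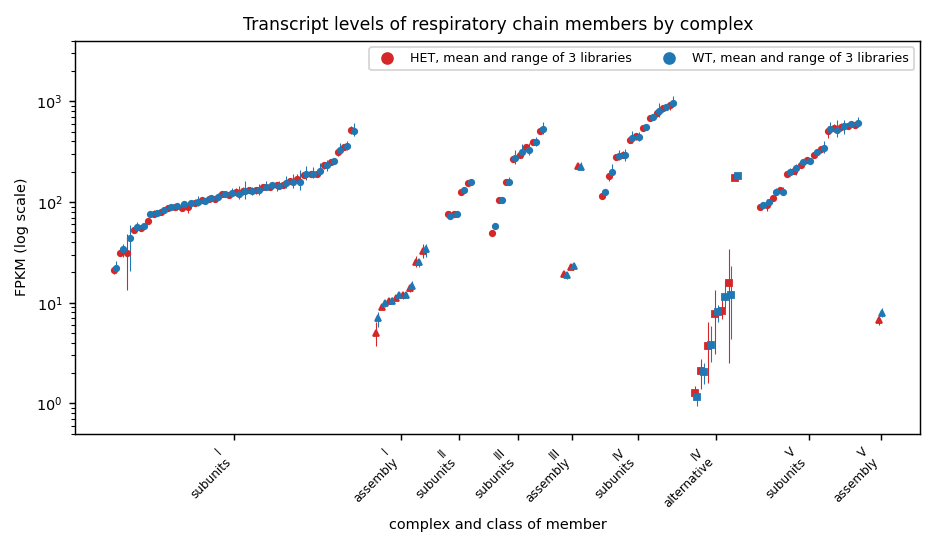
Level of each tested member in FPKM (log scale) by complex and class, ordered by mean; red is HET, blue is WT, each symbol is the mean of 3 libraries and each line their range. Circles are structural subunits, triangles assembly factors and squares alternative forms. The highest symbols are those of Cox6c in complex IV, at 919 FPKM in HET and 964 FPKM in WT. Most alternative forms lie under 20 FPKM, and HET and WT symbols nearly coincide for most members.

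Cox6c, a small membrane-spanning subunit of cytochrome c oxidase, was the highest of the structural subunits taken by name. It was at 964, 826 and 966 FPKM in HET 1 to HET 3 and 877, 1131 and 883 FPKM in WT 1 to WT 3. WT 2 was highest and HET 2 lowest, and the genotypes overlapped. Cox5a, a subunit on the matrix side, was the lowest of complex IV, with 116, 119 and 109 FPKM in HET and 123, 133 and 119 FPKM in WT. In complex III the hinge protein Uqcrh was highest (mean 520 FPKM), and the Rieske iron-sulfur protein Uqcrfs1 lowest (53.6 FPKM). In complex I the accessory subunits Ndufa3 and Ndufa11 marked the ends of the range at means of 517 and 21.7 FPKM. In complex V these were Atp5h, of the stalk that holds the catalytic head in place (594 FPKM), and Atp5d, of the rotating central stalk (91.7 FPKM). All these rankings cover only subunits taken by name. Usmg5, a subunit outside the name pattern, was at 1093, 1061 and 1109 FPKM in HET and 930, 1377 and 1005 FPKM in WT. It is named after its values were seen.

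Complex II has 4 subunits, and the ratio of its highest to its lowest mean level was 2.12, against 23.8, 9.70, 7.85 and 6.47 in complexes I, III, IV and V. The flavoprotein Sdha, which oxidises succinate, was at 154, 153 and 160 FPKM in HET and 155, 159 and 159 FPKM in WT. The iron-sulfur subunit Sdhb was at 122, 125 and 129 FPKM in HET and 129, 140 and 125 FPKM in WT. The membrane anchors Sdhc and Sdhd had means of 73.8 FPKM and 76.3 FPKM over the 6 libraries. The genotypes overlapped for all 4.

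The spread between libraries set the scale for any genotype difference. Members moved together from library to library. Their median deviation from their own mean, on the log2 scale, was -0.01, -0.09 and 0.04 in HET 1 to HET 3 and -0.06, 0.16 and -0.06 in WT 1 to WT 3, whereas the median over all 13122 genes tested stayed within 0.01 of 0 in each. WT 2 was the highest library for 66 of 93 members, against 18.1% of all genes tested, and HET 2 was the lowest for 35 members, against 19.1% of all genes. The SD within genotype had a median of 0.129 over members and 0.117 over all genes tested (log2). HET 2 and WT 2 also differed from the other libraries in their lowest values. They had 6917 and 6210 symbols at 0, and 3 and 14 above 0 but under 0.001 FPKM. HET 1, HET 3, WT 1 and WT 3 each had 4262 at 0, and 2199, 2394, 2584 and 2609 under 0.001 FPKM. The part of this difference in the members' values was not tested.

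**Figure D2:**
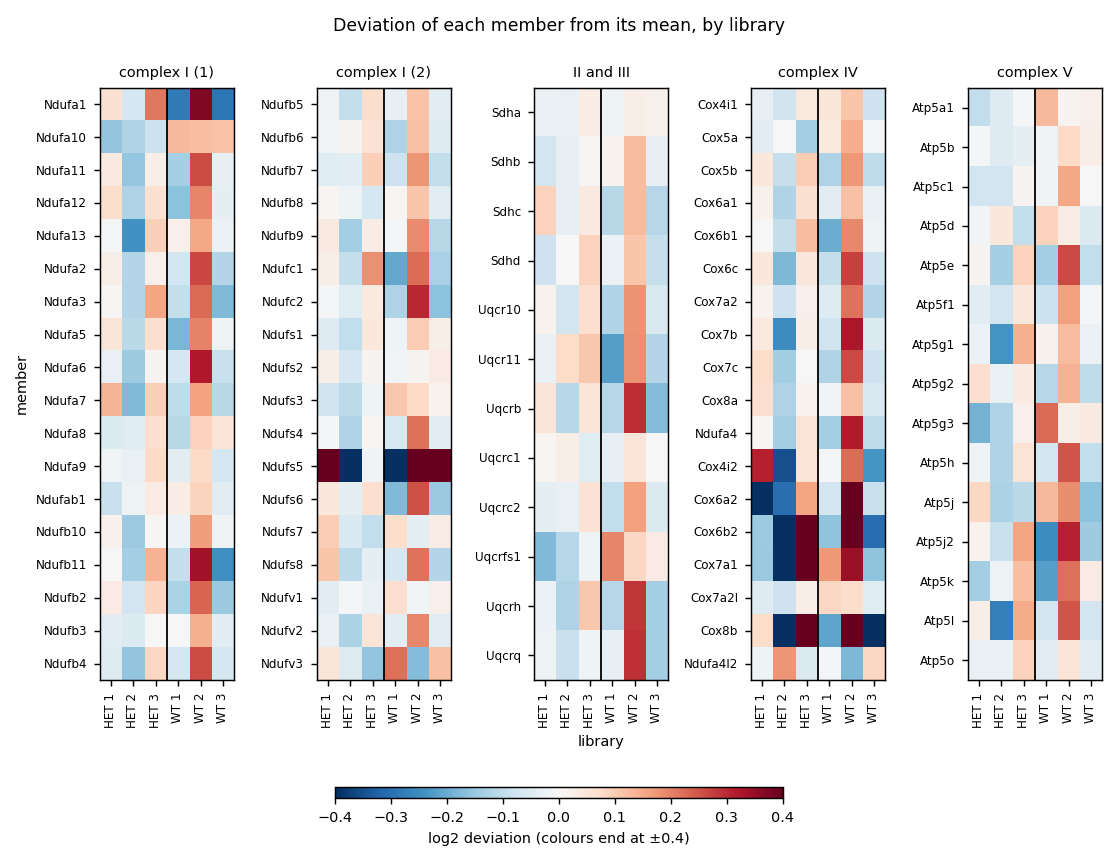
Deviation of each tested structural subunit and alternative form from its mean over the 6 libraries (log2, colours end at ±0.4), by complex, with HET libraries left of WT libraries. The column of WT 2 is red for most members, and Ndufs5, Cox6a2, Cox6b2, Cox7a1 and Cox8b reach the ends of the scale.

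The deviation of WT 2 was larger in short transcripts, which make up much of the respiratory chain. Members had a median transcript length of 755 nt, against 2699 nt over all genes with a length. The median deviation of WT 2 was 0.26 in the 30 members under 600 nt, 0.18 in the 28 of 600 to 1000 nt, 0.11 in the 26 of 1000 to 2000 nt and 0.10 in the 9 longer members. Other genes of these length classes had 0.16, 0.10, 0.03 and -0.03 in WT 2, so a gradient was present outside the respiratory chain too. From the shortest to the longest class, the members' median deviation was 0.013, 0.0070, -0.029 and -0.087 in HET 1, -0.12, -0.094, -0.060 and -0.077 in HET 2 and 0.066, 0.043, 0.018 and 0.033 in HET 3. It was -0.12, -0.060, -0.012 and 0.00064 in WT 1 and -0.099, -0.076, -0.026 and 0.019 in WT 3. The size of the deviation was thus larger in the long classes in HET 1 and larger in the short ones in WT 1 and WT 3. WT 2 was the highest library for 47 of the 58 members up to 1000 nt and for 19 of the 35 longer ones. Cytosolic ribosomal proteins, which are also short and abundant, had median deviations of 0.07, -0.10 and 0.10 in HET 1 to HET 3 and of -0.12, 0.16 and -0.11 in WT 1 to WT 3. The part of transcript length in the members' values was not tested beyond these classes.

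**Figure D3:**
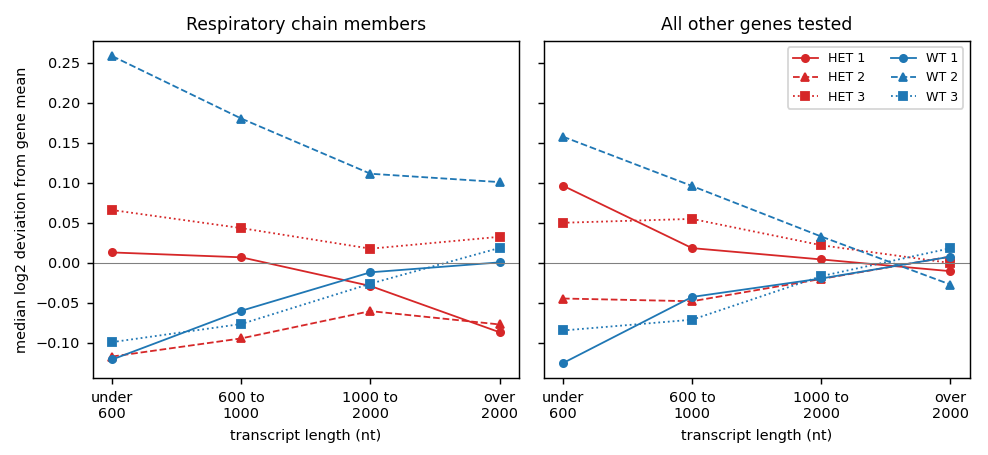
Median log2 deviation from the gene mean in each library by transcript length class, for respiratory chain members (left) and all other genes tested (right); red lines are HET libraries and blue lines WT libraries. WT 2 is at 0.26 for members under 600 nt and at 0.10 for those over 2000 nt, and the other genes run from 0.16 to -0.03.

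Single subunits differed widely in their spread. Ndufs5, an accessory subunit of complex I on the intermembrane side, varied most of the structural subunits: it was at 47.7, 13.3 and 32.8 FPKM in HET and 20.8, 59.2 and 50.6 FPKM in WT. HET 2 and WT 1 were low and the genotypes overlapped (SD within genotype 0.851 on the log2 scale). The accessory subunits Ndufa1 and Ndufb11 followed, with SDs of 0.287 and 0.234. Least variable were Ndufa10 (0.0265), Sdha (0.0283) and Ndufv1 (0.0310), the flavoprotein that takes electrons from NADH, which was at 85.5, 87.7 and 86.6 FPKM in HET and 92.4, 87.4 and 89.4 FPKM in WT.

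The genotype comparison asked whether these transcripts differ when 1 allele of Nfat5 is disrupted. No member passed the test. With limma on all 13122 genes and an adjusted p of 0.05, 0 of 93 members and 0.0% of all genes were called, the smallest adjusted p being 1.00 among members and 0.383 among all genes. At an unadjusted p under 0.05, 4 members were lower in HET and 0 higher, or 4.3% and 0.0% of members, against 1.84% and 1.85% of all genes. The members under this unadjusted p, in either direction, numbered 1 without HET 1, 2 without HET 2, 6 without HET 3, 1 without WT 1, 8 without WT 2 and 3 without WT 3. Among all 13122 genes the numbers were 681, 479, 415, 371, 712 and 489 in the same order. The log2 difference ranged from -0.51 to 0.13 over the members, 3 of them lay beyond 0.25 in size (Ndufs5, Ndufaf6 and Cox6a2), and the median SE was 0.0973. Both ends of the range overlapped between genotypes and rested on single libraries. Ndufs5, at -0.51 (SE 0.678), lay between -0.96 and -0.0079 with a library left out, and Ndufa1, at 0.13, between 0.023 and 0.35.

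By sign, 67 of 93 members (72.0%) were lower in HET, against 50.0% of all genes tested, with a median difference of -0.045 on the log2 scale in members and within 0.01 of 0 in all genes. This count rested on single libraries, among them WT 2 and HET 2, which also differed from the others in their lowest values. Without WT 2, 35 of 93 members were lower and the median was 0.027, and without HET 2 the count was 47 and the median -0.0024. Without HET 1, HET 3, WT 1 and WT 3 in turn, 66, 81, 84 and 80 members were lower, with medians from -0.085 to -0.049.

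By complex, the median log2 difference between HET and WT was -0.044 for complex I (24 of 36 subunits lower), -0.0073 for complex II (2 of 4), -0.0084 for complex III (6 of 8), -0.041 for complex IV (9 of 11) and -0.053 for complex V (12 of 15). For the 12 assembly factors it was -0.048 (10 lower), and all 8 of those for complex I were lower. Without WT 2 the median of each of the 5 complexes was positive, from 0.020 to 0.084. The assembly factors kept a negative median when any 1 library was left out, at -0.062 to -0.016.

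**Figure D4:**
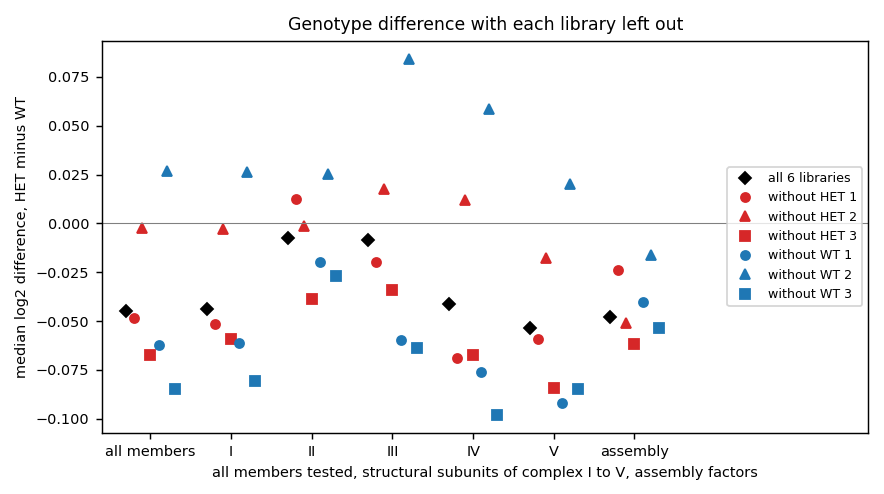
Median log2 difference (HET minus WT) over all tested members, over the structural subunits of complexes I to V and over the assembly factors, with all 6 libraries (black) and with each library left out (red for HET, blue for WT). Without WT 2 the median over all members is 0.027 and that of complex III 0.084, whereas with all 6 libraries they are -0.045 and -0.0084.

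The counts by sign also varied with length. Of the 35 members over 1000 nt, 31 were lower in HET (median -0.061), and of the 58 shorter ones 36 were lower (median -0.026). Without WT 2 these counts were 22 (median -0.024) and 13 (median 0.072). Other genes over 1000 nt were lower in 50.5% (1000 to 2000 nt) and 50.8% (longer) of cases, and other genes under 600 nt in 37.9%.

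All 3 HET libraries lay below all 3 WT libraries for 7 of 93 members (7.53%), against 4.39% of all genes tested, and above them for 0 members, against 4.13%. The 7 were Ndufa10, Ndufs3, Ndufaf1, Uqcrfs1, Uqcc1, Atp5a1 and Atp5g3, of which Ndufs3, Ndufaf1 and Uqcc1 are named after their values were seen. Without WT 2, 18 members had all HET libraries above the remaining WT libraries, and without HET 3 and WT 3 in turn 17 and 15 members had all HET libraries below. Non-overlap is easier with a library left out, so these counts cannot be set against the 4.39% and 4.13%. No share over all genes is given for them here.

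Ndufa10, an accessory subunit of the complex I membrane arm related to nucleoside kinases, had the smallest p of the members. It was at 63.0, 64.7 and 66.3 FPKM in HET 1 to HET 3 and at 77.2, 76.7 and 76.3 FPKM in WT 1 to WT 3. The HET libraries lay close together, and so did the WT libraries, with no overlap. The log2 difference was -0.24 (SE 0.0610, 95% interval -0.38 to -0.11, limma unadjusted p = 0.0027, adjusted p = 1.00), and it stayed between -0.26 and -0.22 when each library was left out. The gene lies on chromosome 1 at 92439010 to 92473860 (minus strand, GRCm38).

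Uqcrfs1, the Rieske protein of complex III that hands electrons to cytochrome c1, was at 47.2, 49.3 and 52.7 FPKM in HET and 61.3, 56.7 and 54.7 FPKM in WT. The ranges did not overlap, with HET 3 nearest to WT 3. The log2 difference was -0.21 (SE 0.0727, limma adjusted p = 1.00), and -0.25 to -0.16 with each library left out. Uqcrfs1 lies on chromosome 13 at 30540308 to 30545362. The core subunit Uqcrc1, by contrast, was at 106, 107 and 102 FPKM in HET and 103, 109 and 105 FPKM in WT, with overlapping ranges.

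Ndufs3, a core complex I subunit of the arm that reduces ubiquinone, was at 86.3, 85.0 and 90.4 FPKM in HET and 98.5, 96.6 and 92.2 FPKM in WT. Ndufs1, the largest iron-sulfur subunit of complex I, overlapped, at 78.9, 76.3 and 84.2 FPKM in HET and 80.8, 87.7 and 83.0 FPKM in WT. Among assembly factors of complex I, Ndufaf6 was at 4.82, 3.73 and 6.48 FPKM in HET and 8.15, 7.34 and 5.74 FPKM in WT. The Ndufaf6 ranges overlapped through HET 3 and WT 3 (log2 difference -0.44, SE 0.175, limma adjusted p = 1.00). Ndufaf1, another assembly factor of complex I, was at 11.4, 11.2 and 11.1 FPKM in HET and 12.9, 11.5 and 11.6 FPKM in WT, where only WT 1 stood away from the rest. Uqcc1, an assembly factor of complex III, was at 22.5, 22.6 and 22.5 FPKM in HET and 23.4, 23.2 and 23.4 FPKM in WT, a log2 difference of -0.051 with very tight libraries (SD within genotype 0.00545).

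Atp5a1 and Atp5b, which form the catalytic head of the ATP synthase, were at different levels. Atp5a1 was at 284, 293 and 302 FPKM in HET and 332, 306 and 308 FPKM in WT, without overlap (log2 difference -0.11, SE 0.0756, limma adjusted p = 1.00). Atp5b was at 585, 565 and 571 FPKM in HET and 581, 619 and 597 FPKM in WT, with overlap (log2 difference -0.061).

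The proton-conducting ring of complex V is built from subunit c, for which Atp5g1, Atp5g2 and Atp5g3 encode the same mature protein. Atp5g3 was at 102, 108 and 119 FPKM in HET and 137, 119 and 120 FPKM in WT; the ranges touched without overlapping, and WT 1 was high (log2 difference -0.19, SE 0.0843, limma adjusted p = 1.00). Atp5g1 was at 94.9, 81.6 and 107 FPKM in HET and 97.8, 105 and 95.0 FPKM in WT, and Atp5g2 at 134, 126 and 132 FPKM in HET and 119, 141 and 120 FPKM in WT. As a share of the 3 genes' summed FPKM, Atp5g3 took 30.9%, 34.1% and 33.3% in HET and 38.8%, 32.6% and 35.9% in WT, and Atp5g2 took 40.5%, 39.9% and 36.9% in HET and 33.5%, 38.6% and 35.7% in WT. No gene of the 3 dominated, and the shares overlapped between genotypes.

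The smallest p among members higher in HET, none of which passed the test, belonged to Uqcr11, a small subunit of complex III, Sdhc and Ndufa1. Uqcr11 was at 333, 357 and 365 FPKM in HET and 291, 385 and 312 FPKM in WT (log2 difference 0.10, SE 0.108). Ndufa1, needed for building the membrane arm of complex I, was at 169, 154 and 188 FPKM in HET and 133, 210 and 132 FPKM in WT (log2 difference 0.13, SE 0.180). In both, WT 2 was the highest library and the other WT libraries the lowest, so the genotypes overlapped.

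Complex IV is the complex with tissue-restricted alternatives of the same subunit, and in hippocampus the common form prevailed for each pair. The common form exceeded the other by a ratio of means of 334 for Cox4i1 over Cox4i2 (the form known from lung), 55.9 for Cox6a1 over Cox6a2, 78.0 for Cox6b1 over Cox6b2 (known from testis), 36.1 for Cox7a2 over Cox7a1, 62.3 for Cox8a over Cox8b and 647 for Ndufa4 over Ndufa4l2 (a hypoxia-induced form). Cox6a2, Cox7a1 and Cox8b are the forms known from heart and skeletal muscle. Cox7a2l, which takes part in joining complexes III and IV, was at 172, 169 and 182 FPKM in HET and 189, 188 and 173 FPKM in WT. Cox8c and Cox7b2, further forms known from testis, were at or near 0: Cox8c was listed at 0 in all 6 libraries, and Cox7b2 was at 1.30, 0.612 and 0.208 FPKM in HET and under 0.001, at 0 and at 0.804 FPKM in WT.

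Cox4i2, Cox6a2, Cox6b2, Cox7a1 and Cox8b varied more between libraries than the common form of each, with SDs within genotype of 0.286 (Cox4i2) to 1.40 (Cox8b) on the log2 scale, against 0.0817 (Cox4i1) to 0.158 (Cox6b1). On this scale Ndufa4l2 (0.129) and Cox7a2l (0.0646) varied less than Ndufa4 (0.191) and Cox7a2 (0.131). Ndufa4l2 lay at 0.941 to 1.48 FPKM, where log2(FPKM + 1) understates spread. Its highest library was 1.58 times its lowest, against 1.37 times for Ndufa4. Cox8b was at 10.6, 2.53 and 34.1 FPKM in HET and 8.49, 23.1 and 4.36 FPKM in WT, while Cox8a was at 901, 790 and 870 FPKM in HET and 854, 933 and 826 FPKM in WT. Cox8b was high in HET 3 and WT 2 and low in HET 2 and WT 3, with wide overlap (log2 difference 0.076, SE 1.13). Its transcript of 360 nt makes 2.53 FPKM about 8.11 fragments in HET 2, by the step estimate of depth. By the same estimate Cox4i2 had 8.95 fragments in HET 2 and 19.9 in HET 3, its extremes, and Cox7a1 had 12.2 in HET 2. The part of such low counts in the SDs of the alternative forms was not tested. Cox7a1 was at 6.49, 3.12 and 13.4 FPKM in HET and 8.35, 9.55 and 6.43 FPKM in WT, and Cox6b2 at 3.03, 1.60 and 6.50 FPKM in HET and 2.99, 5.94 and 2.61 FPKM in WT. Cox6a2 was at 6.83, 7.49 and 10.7 FPKM in HET and 8.91, 16.3 and 8.83 FPKM in WT. Both Cox7a1 and Cox6b2 were highest in HET 3 and lowest in HET 2, and Cox6a2 highest in WT 2.

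The libraries' order for Cox8b and for Cox6b2, from HET 2 through WT 3, WT 1, HET 1 and WT 2 to HET 3, was that of all 5 choroid plexus markers (Ttr, Folr1, Kl, Clic6 and Kcnj13), and Cox7a1 differed from it in the order of HET 1 and WT 1. Cox6b2 had an estimated 10.4 and 6.18 fragments in HET 1 and HET 2 and 14.0 and 10.9 in WT 1 and WT 3. Its order among these libraries is therefore uncertain. The transthyretin gene Ttr was at 1731, 87.4 and 3338 FPKM in HET and 1017, 2801 and 263 FPKM in WT. Summed over the 5 markers, levels ran from 96.6 to 3446 FPKM in HET and from 281 to 2884 FPKM in WT. The muscle markers Ckm and Actc1 were listed at 0 in all libraries, Myh6 was under 0.1 FPKM, and Acta1 was at 1.22 to 1.70 FPKM in HET and 0.802 to 1.62 FPKM in WT. The part of choroid plexus RNA in these values was not tested, and in bulk RNA fewer cells of a type and less RNA per cell cannot be told apart.

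**Figure D5:**
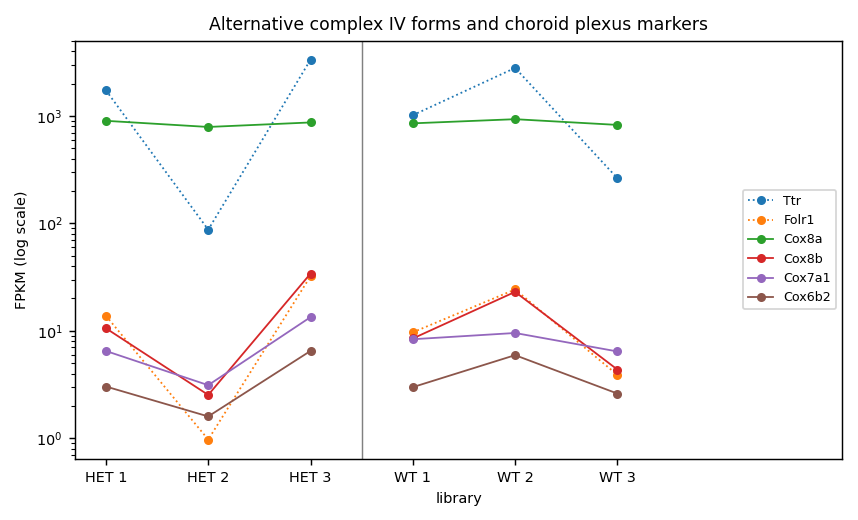
FPKM (log scale) of Cox8a, of the alternative forms Cox8b, Cox7a1 and Cox6b2, and of the choroid plexus markers Ttr and Folr1 in each library, HET left of WT. Cox8b, Ttr and Folr1 are lowest in HET 2 and highest in HET 3 (Cox8b at 2.53 and 34.1 FPKM), whereas Cox8a stays between 790 and 933 FPKM.

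Other genes of mitochondrial metabolism were read from the same fit, and 0 members of any of these lists passed the test. Of 16 regulators of mitochondrial transcription and biogenesis, 10 were lower in HET (median -0.027), and Esrrg, an estrogen-related receptor, was at 5.01, 5.35 and 5.95 FPKM in HET and 7.14, 6.61 and 8.36 FPKM in WT, without overlap (log2 difference -0.38, SE 0.105, limma adjusted p = 1.00). Of 36 assembly factors outside the name pattern 22 were lower (median -0.032), among them the complex V assembly factor Atpaf1 at 25.2, 20.5 and 20.5 FPKM in HET and 26.2, 26.7 and 26.5 FPKM in WT. Of 5 electron carriers and further subunits 4 were lower (median -0.025), with cytochrome c (Cycs) at 61.8, 58.1 and 61.8 FPKM in HET and 61.8, 74.6 and 60.6 FPKM in WT. Among genes higher in HET, the smallest p in each list belonged to Polg, Bcs1l and Atpif1. Their log2 differences were 0.11, 0.12 and 0.014, and the genotypes overlapped for each.

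Of 16 genes of pyruvate dehydrogenase and the citric acid cycle, 15 were lower (median -0.047), and 10 to 15 with a library left out. Ogdh, a subunit of the 2-oxoglutarate dehydrogenase complex, was at 18.3, 18.1 and 17.0 FPKM in HET and 25.3, 18.1 and 19.0 FPKM in WT, with WT 1 apart from the rest. Pdha1, of the same list and higher in HET, had a log2 difference of 0.012 with overlap. Mitochondrial ribosomal proteins were lower for 45 of 77 (median -0.020), and cytosolic ones for 18 of 94 (median 0.048). Of the mitochondrial ones, Mrpl47 was lower (log2 difference -0.29) and Mrps28 higher (0.21), both without overlap.

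Cell type markers differed between libraries, and their part in the values above was not tested. The 3 parvalbumin interneuron markers, of cells known for many mitochondria, were lower in HET (median -0.44), their sum being 85.5 to 91.9 FPKM in HET and 103 to 146 FPKM in WT, with Pvalb at 73.2, 74.1 and 72.6 FPKM in HET and 82.4, 128 and 94.4 FPKM in WT. Syt2, the marker of this list with the smallest p, was at 3.20, 4.15 and 3.62 FPKM in HET and 5.75, 5.13 and 6.78 FPKM in WT. All 6 thalamus markers were lower (median -0.55), their sum being 203, 108 and 101 FPKM in HET and 176, 209 and 197 FPKM in WT. Markers of hippocampal principal cells were present in every library, at a sum of 190 to 223 FPKM in HET and 188 to 207 FPKM in WT, and 5 of 6 were higher in HET (median 0.14). Of the meningeal markers 5 of 5 tested were higher (median 0.27), with a sum of 32.5 to 62.1 FPKM in HET and 35.9 to 36.8 FPKM in WT. Of the oligodendrocyte markers 3 of 3 were lower (median -0.065), with sums of 2742 to 3871 FPKM in HET and 3436 to 3636 FPKM in WT. General neuron markers were lower for 2 of 3 (median -0.035) and endothelial ones for 3 of 3 (median -0.032). Astrocyte markers were higher for 3 of 3 (median 0.021) and microglial ones for 3 of 4 (median 0.093).

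Depth and shared reads limit single values. The step between low values corresponded to an estimated 7850000, 8900000 and 12700000 fragments in HET 1 to HET 3 and 10750000, 8650000 and 9600000 in WT 1 to WT 3, so that 1 fragment in 1 kb was worth 0.0787 to 0.127 FPKM. Of the 95 members, 40 overlapped another annotated gene, 12 of them on the same strand, among them Cox4i1 with the gene model Gm20388. Atp5a1, Ndufs3 and Ndufs1 overlap Haus1, Kbtbd4 and Eef1b2 on the opposite strand. Named pseudogenes exist for Atp5c1, Atp5k, Atp5l, Ndufab1 and Uqcrh in the annotation. The sources used here do not give how the authors' counting treated strand or shared reads, so these values are uncertain to that extent.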

How the data were processed

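Hippocampal total RNA was isolated with Trizol and 1.3 ug went into each directional NEBNext Ultra II library, according to the labels' protocols. Alignment used TopHat and mm10, per the submitters' processing notes. Its version, the annotation and the abundance program: not given in the sources used here. The authors deposited 1 table per library with 1 log2 value per gene symbol. No header or label names the unit, which was read from the values as log2(FPKM + 1): none was negative, and low values fell into steps that depend on gene length (69.1% to 73.5% of them within 0.15 of a whole step). Depths are estimates from these steps, read from genes with 1 annotated transcript. For each library the depth that gave the largest such share was taken. The share is therefore not an independent check of the unit or the depth. Another unit would change the FPKM values, and another log base the differences too.

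FPKM was taken as 2 to the power of the value, minus 1. The 13122 genes that reached 1 FPKM in 3 libraries or more were fitted on the deposited log2 scale with limma 3.58.1 (R 4.3.3; genotype only, eBayes with trend and robust). Adjusted p-values are Benjamini-Hochberg over these genes, with a threshold of 0.05. Differences of low genes are understated on the log2(FPKM + 1) scale. The test was checked on simulated data. Lists were described by counts and medians, with no test. Members and lists were chosen with earlier results of these data known.

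Genes named were the highest and lowest subunit of each complex, those with the smallest p per direction and the largest and smallest spread, alternative forms of a subunit, catalytic or electron-carrying subunits, members at or near 0, Nfat5, and from each other list at most the gene with the smallest p per direction. Pvalb, Ttr, Folr1 and the muscle markers are given beyond this rule and were picked with their values seen; other exceptions are stated with the gene. Positions, lengths and overlaps are from GENCODE M21 (GRCm38, the assembly mm10 names), and promoter windows from RefSeq (GRCm38.p6). As alternatives, values were quantile-normalized or scaled to 1 median, the filter was dropped or set to a mean of 5 FPKM, the pseudocount was 0.1, the robust option was left out, the threshold was 0.1, the replicate number was a block, assembly factors and alternative forms were left out, and each library was left out. Centring within 20 length bins was chosen after seeing the data. Plots were made in Python 3.11.15 (matplotlib 3.10.9).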

Additional observations from a re-analysis of the deposited data

How the results depend on the processing

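With 3 libraries a genotype and a median SE of 0.0973 for a member, small differences were not detectable, and calls stayed at 0 of 93 members under every setting tried. Among all genes, 0 to 8 were called with a library left out (the 8 without HET 1) and 0 under the other settings, the adjusted p of 0.1 included. The members lower in HET numbered 35 to 84 with a library left out and 66 to 76 under the others, with a median of -0.085 to 0.027 over all settings; structural subunits alone gave 53 of 74 and a median of -0.041. All HET libraries were below all WT libraries for 9 to 17 members with a library left out, and above them for 0 to 18. With all 6 libraries, centring within length bins gave 11 below, median scaling 9 and quantile normalization 5. The cause was not tested. Leaving out a library makes non-overlap easier. No share over all genes is given here for any of these settings, length-bin centring included, so the counts cannot be read against all genes.

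HET and WT libraries with the same number did not vary alike. The correlations of their deviations within genotype were -0.21, -0.25 and -0.16, and those of other pairs 0.05 to 0.17. Such correlations cannot show whether libraries with the same number were handled together. HET 2 and WT 2 did share a low number of values above 0 and under 0.001 FPKM (3 and 14). With the replicate block, 0 genes were called, 384 had an unadjusted p under 0.05 (484 without it), 2 of them members (4 without it), and the members' median was -0.045.

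Signs of single small differences changed, and the cause was not tested. Log2 differences with a library left out ranged as follows: Atp5g1 -0.17 to 0.019, Atp5h -0.12 to 0.059, Cox4i2 -0.14 to 0.19, Cox6a1 -0.068 to 0.024, Cox6b1 -0.076 to 0.12, Cox6b2 -0.52 to 0.25, Cox6c -0.13 to 0.058, Cox7a1 -0.70 to 0.21, Cox7a2 -0.098 to 0.068, Cox7b -0.20 to 0.0048, Cox8a -0.069 to 0.026, Cox8b -0.74 to 0.91, Ndufa11 -0.15 to 0.051, Ndufa3 -0.052 to 0.15, Ndufa4 -0.13 to 0.092, Ndufa4l2 -0.0040 to 0.13, Ndufb11 -0.12 to 0.17, Uqcrc1 -0.030 to 0.012 and Uqcrh -0.10 to 0.11. Under length-bin centring, Cox4i2 was at -0.021, Cox6b1 at -0.014, Ndufa3 at -0.0027 and Ndufb11 at -0.010. Under median scaling, Cox4i2 was at -0.0022 and Ndufb11 at -0.011. Under quantile normalization, Cox4i2 was at -0.0033, Ndufa3 at -0.012 and Uqcrc1 at 0.0067.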
